A study of Rattus norvegicus with 8 samples.

Results

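Perineuronal nets are lattices of extracellular matrix that enclose the cell body and proximal dendrites of some neurons, above all parvalbumin interneurons and, in the hippocampus, pyramidal cells of area CA2. Lecticans, a family of chondroitin sulfate proteoglycans, bind the polysaccharide hyaluronan at one end, link proteins of the HAPLN family lock that bond, and tenascins cross-link the other ends. The lattice assembles as neurons mature and is known for limiting plasticity. The genes described here are 10 net genes, chosen by symbol, of the 32623 annotated genes: the lecticans Acan, Bcan, Ncan and Vcan, the link protein genes Hapln1 and Hapln4, the tenascins Tnr and Tnc, and the membrane-bound proteoglycans Ptprz1 and Cspg5. All 10 were found and all 10 passed the filter on low counts.

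Polyadenylated RNA was sequenced from brain cultures of wild type SD rats (hippocampal neurons at DIV 18, meaning day 18 in vitro) in 4 libraries given a PAM (positive allosteric modulator) of NMDA receptors and in 4 given vehicle. A modulator of this kind makes these glutamate receptor channels respond more to agonist, and the comparison asks which transcripts differ afterwards. Which compound was used, at what dose and for how long, and which cell types the cultures held, is not given in the sources. Libraries held 2960406 to 4389430 counts with PAM and 3175404 to 3679249 with vehicle, and net genes had 32 counts (Tnr, PAM 3) to 2909 counts (Ptprz1, PAM 2) in a library. Longer genes had relatively fewer counts in PAM 3 and PAM 4: the slope of log2 count on log2 exonic length was -0.0853 and -0.132, against 0.00524 and 0.0627 in PAM 1 and PAM 2 and 0.0146 to 0.0516 in vehicle libraries. Since 7 of the 10 genes have 5089 or more exonic bases, results are also given with this trend removed and without PAM 3 and PAM 4. Nothing in the labels says that replicates are separate cultures, so p-values measure the spread between these libraries, which may be technical.

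Of the 10 net genes, 2 rose with PAM, Tnc and Bcan, and 0 fell (edgeR, quasi-likelihood F test; an adjusted p, by Benjamini-Hochberg over 11740 genes, under 0.05). Among all tested genes 18.9% passed in either direction, with 9.00% of tested genes higher and 9.89% lower in PAM libraries. A count of 2 in the 10 net genes is therefore near the background. Their log2 fold changes ran from -0.32 for Tnr to 0.62 for Vcan, with a median of 0.15, against 0.02 over all tested genes. By role, the estimate was above 0 for 3 of the 4 lecticans, for Tnc and for Ptprz1, and below 0 for both link protein genes, Ncan, Tnr and Cspg5. The groups of libraries did not overlap for 1 of the 10, Tnc, where 22.3% of all tested genes did not overlap (10.3% with PAM higher). In bulk RNA fewer cells of a type and less RNA per cell cannot be told apart.

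**Figure D1:**
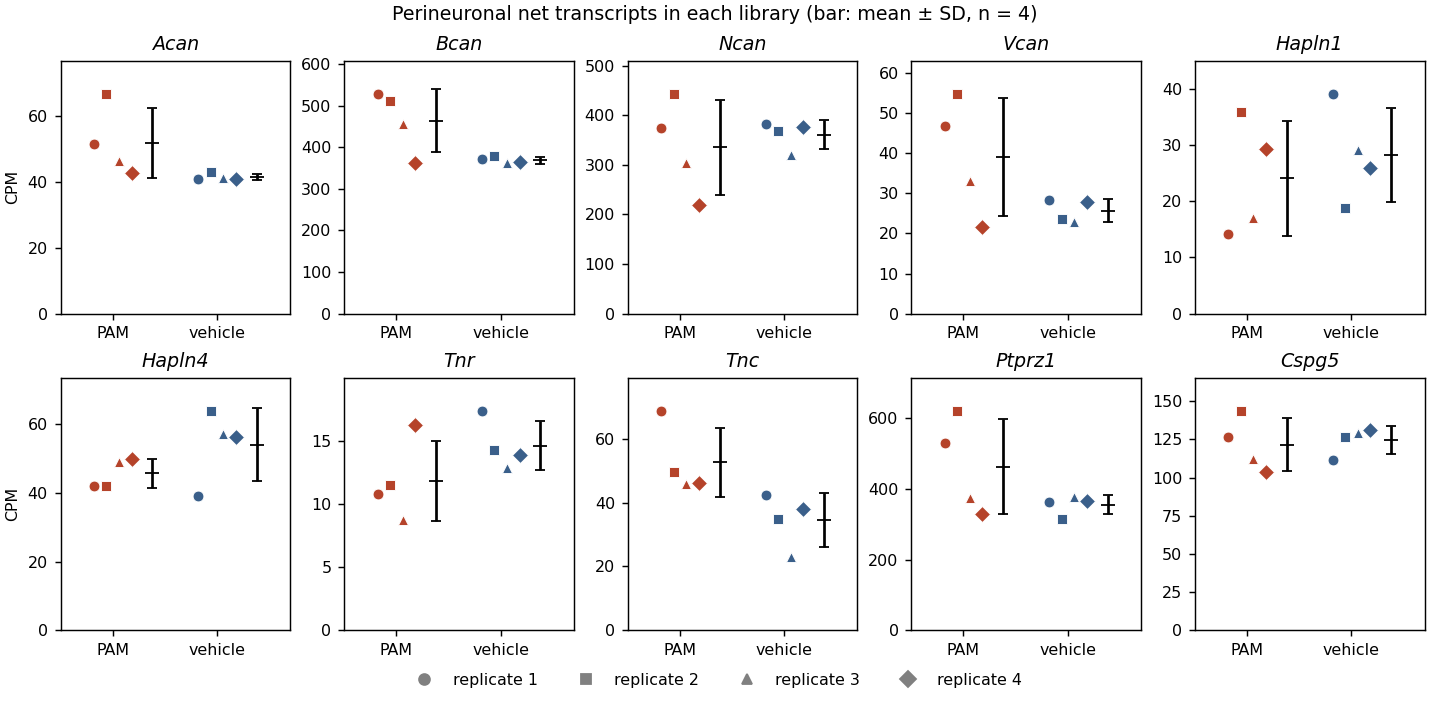
CPM, the counts scaled to library size, of each net gene in each library, PAM left of vehicle, with marker shapes for the replicate number and bars for mean ± SD (n = 4 per group). Tnc is the gene whose PAM libraries all lie above its vehicle libraries; for Bcan, PAM 4 lies among the vehicle libraries.

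Levels of different genes were compared per kilobase of exon. Bcan, the brain-specific lectican brevican, was the most abundant, at 142 ± 22.9 CPM per kb with PAM and 113 ± 2.36 with vehicle (SD, n = 4 each). The level of Cspg5, which encodes the transmembrane proteoglycan neuroglycan C, was 70.9 ± 10.2 CPM per kb with PAM and 72.7 ± 5.23 with vehicle. Close to it lay Ncan (neurocan), at 64.5 ± 18.4 CPM per kb with PAM and 69.5 ± 5.49 with vehicle. Ptprz1, a receptor phosphatase whose secreted splice form is phosphacan, stood at 58.9 ± 17.3 CPM per kb with PAM and 45.3 ± 3.46 with vehicle. These 4 genes were above the 86th percentile of all tested genes with PAM and above the 81st with vehicle.

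A lower tier followed. The link protein gene Hapln4 had 12.4 ± 1.16 CPM per kb with PAM and 14.7 ± 2.87 with vehicle, and Acan, which encodes the net-defining lectican aggrecan, 7.45 ± 1.52 with PAM and 5.97 ± 0.149 with vehicle. Tnc had 7.29 ± 1.51 CPM per kb with PAM and 4.78 ± 1.16 with vehicle, and the link protein gene Hapln1 4.72 ± 2.01 with PAM and 5.54 ± 1.66 with vehicle. The libraries of Tnc and Hapln1 overlapped in both groups. Vcan (versican) reached 3.38 ± 1.27 CPM per kb with PAM and 2.22 ± 0.244 with vehicle. Tnr, which encodes the net cross-linker tenascin-R, was the least abundant, at 1.69 ± 0.450 CPM per kb with PAM and 2.09 ± 0.278 with vehicle, below the 8th percentile of tested genes with PAM and below the 12th with vehicle. In this order the libraries of Cspg5 and Ncan overlapped in both groups, as did those of Vcan and Tnr, while Bcan, Ptprz1 over Hapln4, and Hapln4 over Acan were separated in both groups. Ncan and Ptprz1 overlapped with PAM and were separated with vehicle.

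**Figure D2:**
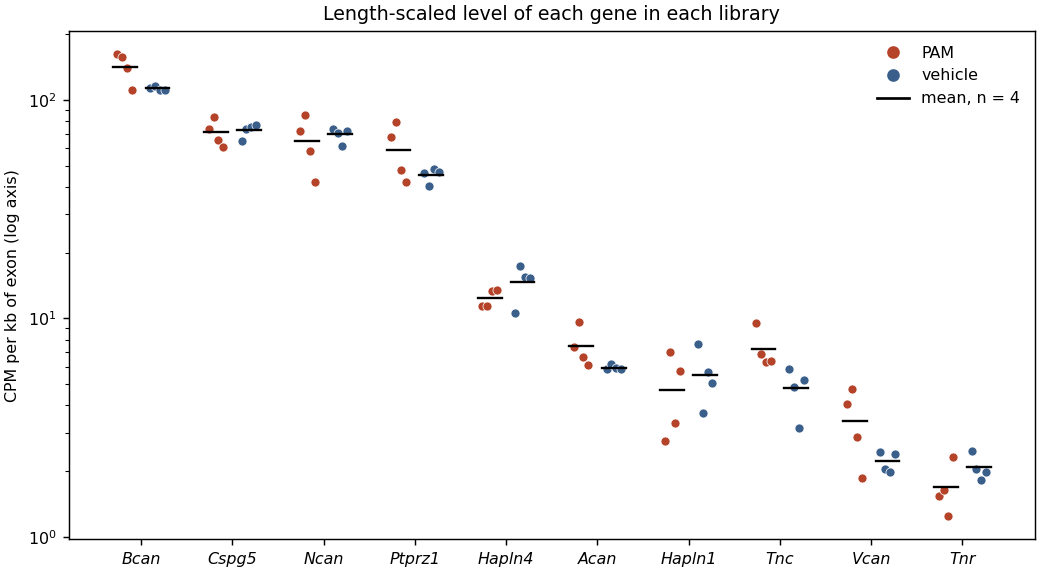
Level of each net gene per kilobase of exon on a log axis, PAM points left of vehicle points, with a line at each mean (n = 4). Bcan, Cspg5, Ncan and Ptprz1 form an upper tier, with library values of 40.2 (Ptprz1, vehicle 2) to 161 (Bcan, PAM 1) CPM per kb, and library values of the other genes lie at or under 17.3 (Hapln4, vehicle 2).

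Among the lecticans, Bcan (chr2:187359677-187372657 on Rnor_6.0, minus strand, 14 merged exons) had 528, 512, 455 and 362 CPM in PAM 1 to 4, against 370, 378, 361 and 364 CPM in vehicle 1 to 4. PAM 1, PAM 2 and PAM 3 lay above every vehicle library and PAM 4 lay inside the vehicle range. Bcan rose by a log2 fold change of 0.33 ± 0.11 (SE), with edgeR's Benjamini-Hochberg adjusted p = 0.0476. This call rests close to the threshold: it held without PAM 4 (adjusted p = 0.00209) and was lost in the other 7 edgeR fits that left out 1 library (without vehicle 1, 2, 3 or 4 or PAM 1, 2 or 3; 0.0744 to 0.147 after Benjamini-Hochberg adjustment).

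Acan (chr1:140762758-140824441, plus strand, 20 merged exons) had 51.4, 66.5, 46.3 and 42.5 CPM in PAM 1 to 4, against 40.9, 42.9, 41.0 and 40.8 CPM in vehicle 1 to 4. The coefficient of variation was 20.4% in PAM libraries and 2.51% in vehicle libraries, and PAM 4 lay between vehicle libraries. Acan had a log2 fold change of 0.33 (95% interval -0.00 to 0.66), not past the threshold (edgeR, Benjamini-Hochberg adjusted p = 0.16).

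Vcan (chr2:18490102-18565842, minus strand, 13 merged exons) codes for a large lectican of developing tissue that oligodendrocyte precursors and astrocytes also make. It had 46.8, 54.8, 33.1 and 21.6 CPM in PAM 1 to 4, against 28.4, 23.7, 22.9 and 27.8 CPM in vehicle 1 to 4. PAM 1, PAM 2 and PAM 3 lay above every vehicle library and PAM 4 lay below all of them. Its log2 fold change was the highest point estimate of the 10 genes, 0.62 (95% interval 0.144 to 1.104), and missed the threshold (edgeR, Benjamini-Hochberg adjusted p = 0.0646). Of the 8 edgeR fits that left out 1 library, Vcan passed in 1, that without PAM 4, at 0.81 (Benjamini-Hochberg adjusted p = 0.00269). The lowest estimate of the 8 fits was 0.42, without PAM 2 (edgeR, Benjamini-Hochberg adjusted p = 0.201).

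Ncan (chr16:21050243-21076707, plus strand, 15 merged exons) had 374, 443, 305 and 220 CPM in PAM 1 to 4, against 382, 368, 319 and 376 CPM in vehicle 1 to 4. PAM 2 was above and PAM 3 and PAM 4 were below every vehicle library. Ncan had a log2 fold change of -0.10 (95% interval -0.44 to 0.23; edgeR, Benjamini-Hochberg adjusted p = 0.703), and it was above 0 without PAM 4, at 0.05.

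The lecticans were then set against each other inside each library, where the scaling of libraries cancels. Counts of Bcan over Ncan gave log2 ratios of 0.50, 0.21, 0.58 and 0.72 in PAM 1 to 4, against -0.04, 0.04, 0.18 and -0.05 in vehicle 1 to 4, so every PAM library was above every vehicle library. The difference was 0.47 on the log2 scale, a ratio 1.38 times as high with PAM. Ncan over Vcan had a mean log2 ratio of 3.13 ± 0.16 with PAM and 3.81 ± 0.10 with vehicle (SD, n = 4 each), a difference of -0.68 that again left no overlap. Acan over Ncan had -2.67 ± 0.21 with PAM and -3.12 ± 0.12 with vehicle, a difference of 0.45 without overlap. Each of these 3 ratios reached the smallest p that 4 against 4 libraries allow (exact two-sided permutation test, p = 0.0286; 0.0571 after Benjamini-Hochberg adjustment over the 8 ratios tested, which does not pass 0.05). All 3 contain Ncan, so they are not independent.

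The ratios without Ncan overlapped between the groups. Acan over Bcan differed by -0.02 (exact two-sided permutation test, p = 0.914), Acan over Vcan by -0.23 (p = 0.343 by the same exact test) and Bcan over Vcan by -0.21 (p = 0.371 by the same exact test). In all, 4 of the 8 ratios did not overlap, where 21.2% of all 68907930 pairs of tested genes did not. For Ncan against every other tested gene this share was 12.4%, and for Bcan 26.5%. As shares of the length-scaled lectican total, Ncan held 29.3% ± 2.95 with PAM and 36.5% ± 1.66 with vehicle, while Bcan held 65.7% ± 3.28 with PAM and 59.2% ± 1.62 with vehicle (SD, n = 4 each). The Ncan shares did not overlap between the groups (at most 33.3% with PAM, at least 34.2% with vehicle). Those of Bcan did overlap (at least 61.1% with PAM, at most 61.5% with vehicle). Acan and Vcan together filled the rest, Acan with 3.45% ± 0.387 with PAM and 3.14% ± 0.121 with vehicle. With the length trend removed, all 3 ratios with Ncan again separated the groups (exact two-sided permutation test, p = 0.0286).

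**Figure D3:**
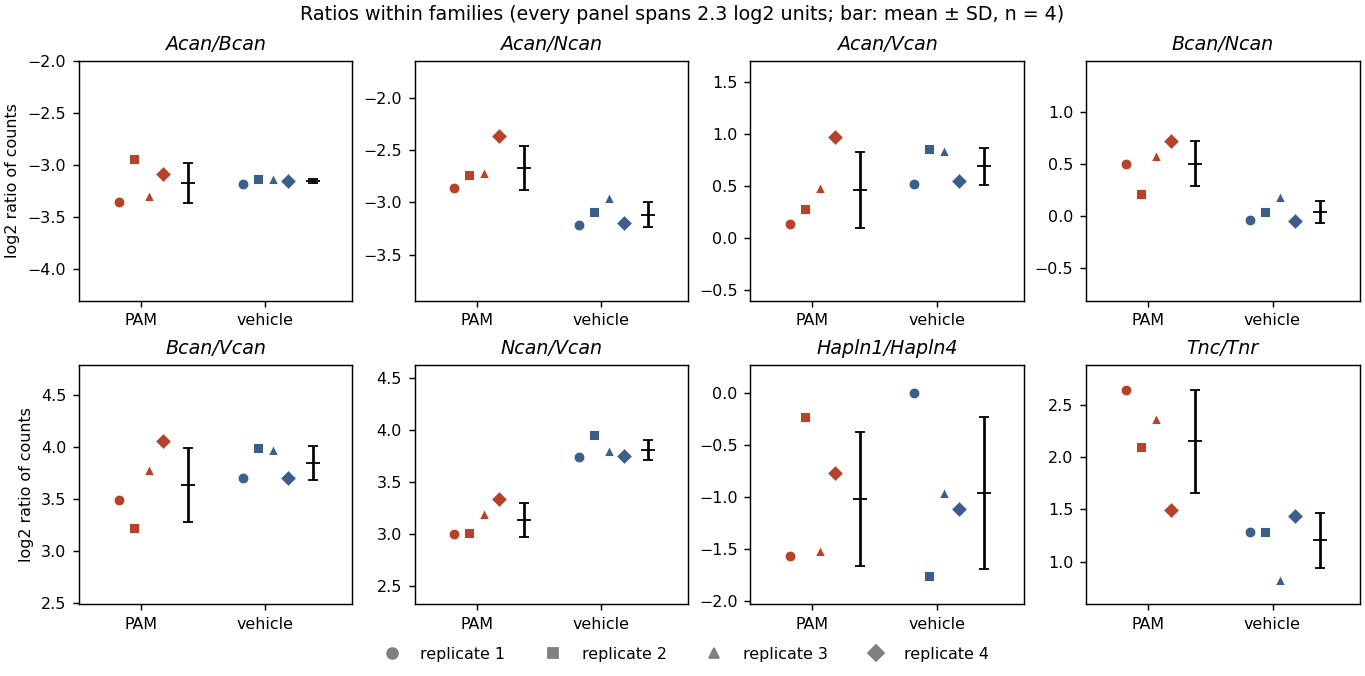
Log2 ratio of the counts of 2 net genes in each library, PAM left of vehicle, with bars for mean ± SD (n = 4) and the same span of the vertical axis in every panel. The groups do not overlap for Acan/Ncan, Bcan/Ncan, Ncan/Vcan and Tnc/Tnr, and they overlap for the other 4 ratios.

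Promoter windows of the genes at the centre of these results, Bcan and Tnc, which rose, and Ncan, the lectican shared by the separated ratios, are printed to show what lies at their starts. They come from RefSeq (GRCr8; 250 bases before to 50 after the gene start, on the gene's strand) and stand at chr2:175765265-175765564 for Bcan (minus), chr16:19335657-19335956 for Ncan (plus) and chr5:82476082-82476381 for Tnc (minus). Capitals mark matches, on either strand, to the GC box GGGCGG or to TATAAN, the core of a TATA box. The windows, 5′ to 3′, are:
Bcan: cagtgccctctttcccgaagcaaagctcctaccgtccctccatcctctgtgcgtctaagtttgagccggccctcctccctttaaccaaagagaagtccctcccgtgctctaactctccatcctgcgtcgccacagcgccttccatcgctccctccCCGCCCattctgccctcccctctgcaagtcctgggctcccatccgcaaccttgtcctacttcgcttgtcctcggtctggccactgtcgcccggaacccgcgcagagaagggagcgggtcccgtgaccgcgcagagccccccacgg
Ncan: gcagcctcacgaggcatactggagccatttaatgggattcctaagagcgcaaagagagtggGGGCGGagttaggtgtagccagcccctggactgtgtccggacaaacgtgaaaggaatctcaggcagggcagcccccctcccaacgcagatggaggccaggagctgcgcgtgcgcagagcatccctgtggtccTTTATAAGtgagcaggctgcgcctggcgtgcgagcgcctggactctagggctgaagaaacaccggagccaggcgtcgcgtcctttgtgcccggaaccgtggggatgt
Tnc: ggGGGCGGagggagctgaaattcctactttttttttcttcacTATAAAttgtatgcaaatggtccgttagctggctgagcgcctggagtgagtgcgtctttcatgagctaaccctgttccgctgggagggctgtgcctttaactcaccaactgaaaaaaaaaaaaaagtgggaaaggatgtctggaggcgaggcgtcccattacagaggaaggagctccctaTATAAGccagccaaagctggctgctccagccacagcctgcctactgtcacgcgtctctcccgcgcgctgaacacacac
A GC box stood in all 3 windows, and 33.1% of all 33469 promoter windows hold one. TATAAN matched at 2 places in the Tnc window and at 2 overlapping places, on opposite strands, in the Ncan window, and not in that of Bcan, against 26.2% of all windows. The activity-related motifs TGANTCA (AP-1; 7.33% of all windows) and TGACGTCA (the cAMP response element; 1.83%) were not in these windows, nor in those of the 5 other net genes with a window. The GC content was 64.0% for Bcan, 61.7% for Ncan and 52.3% for Tnc, against a median of 51.7% over all windows. A match describes letters only.

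Link proteins stabilise the bond between lectican and hyaluronan. Hapln1 (chr2:18354542-18419071, plus strand, 5 merged exons) lies beside Vcan with 71030 bases and 0 annotated genes between them. It had 14.1, 35.8, 16.98 and 29.2 CPM in PAM 1 to 4, against 39.0, 18.7, 29.1 and 25.9 CPM in vehicle 1 to 4. Each group spread over more than a factor of 2, and the groups overlapped in part: PAM 1 and PAM 3 lay below every vehicle library and vehicle 1 lay above every PAM library. Hapln1 had a log2 fold change of -0.23, with a 95% interval of -0.82 to 0.36 that spans decreases and increases (edgeR, Benjamini-Hochberg adjusted p = 0.621).

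Hapln4, a link protein gene of brain that is known for its part in inhibitory synapses of the mouse cerebellum, lies 4669 bases from Ncan (chr16:21081377-21089508, minus strand, 5 merged exons), again with 0 annotated genes between. It had 41.9, 42.0, 49.0 and 49.8 CPM in PAM 1 to 4, against 39.0, 63.9, 57.0 and 56.3 CPM in vehicle 1 to 4. Vehicle 1 lay below every PAM library and the other 3 vehicle libraries lay above them. The estimate was a log2 fold change of -0.25 (95% interval -0.58 to 0.09; edgeR, Benjamini-Hochberg adjusted p = 0.308). The ratio of Hapln1 to Hapln4 differed by -0.06 on the log2 scale, with SDs of 0.64 with PAM and 0.73 with vehicle (exact two-sided permutation test, p = 0.914).

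Tnc, the gene of tenascin-C, a matrix glycoprotein of developing and injured tissue made largely by astrocytes, rose (chr5:79789671-79874671, minus strand, 26 merged exons). It had 68.7, 49.7, 45.7 and 46.1 CPM in PAM 1 to 4, against 42.4, 34.96, 22.9 and 37.9 CPM in vehicle 1 to 4. Every PAM library lay above every vehicle library, with the nearest pair, PAM 3 and vehicle 1, 45.7 and 42.4 CPM. The log2 fold change was 0.61 ± 0.19 (SE; edgeR, Benjamini-Hochberg adjusted p = 0.0311). The call ended in 4 of the 8 edgeR fits that left out 1 library, those without vehicle 2, 3 or 4 or without PAM 1 (0.0576 to 0.131 after Benjamini-Hochberg adjustment).

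Tnr (chr13:77485113-77678437, plus strand, 23 merged exons) had 10.8, 11.5, 8.76 and 16.2 CPM in PAM 1 to 4, against 17.4, 14.3, 12.8 and 13.9 CPM in vehicle 1 to 4. PAM 1 to 3 lay below every vehicle library and PAM 4 lay among them. The log2 fold change of -0.32 had a 95% interval of -0.86 to 0.22 (edgeR, Benjamini-Hochberg adjusted p = 0.431). Tnr shares exon bases with 1 other annotated gene on its strand, which had 0 counts. The log2 ratio of Tnc to Tnr was 2.15 ± 0.49 with PAM and 1.204 ± 0.26 with vehicle (SD, n = 4 each). That ratio was 1.93 times as high with PAM and without overlap, though the nearest pair was close, 1.498 in PAM 4 and 1.434 in vehicle 4. The exact two-sided permutation test gave p = 0.0286, the smallest possible, and 0.0571 after Benjamini-Hochberg adjustment over 8 ratios. Against every other tested gene, the share of ratios without overlap was 32.5% for Tnc and 16.5% for Tnr.

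By a rule on the root mean square difference of mean-centred log2 CPM over the 8 libraries, the genes most like Tnc among 8861 with a symbol and at least 10 CPM included Tmie (0.11) and Zxdc (0.12). With log2 fold changes of 0.58 for Tmie and 0.50 for Zxdc, neither passed the test (edgeR, Benjamini-Hochberg adjusted p = 0.161 for Tmie and 0.233 for Zxdc).

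Ptprz1 (chr4:49941304-50140762, plus strand, 30 merged exons) had 529, 620, 374 and 329 CPM in PAM 1 to 4, against 364, 316, 377 and 365 CPM in vehicle 1 to 4. PAM 1 and PAM 2 lay above every vehicle library, and PAM 3 and PAM 4 lay inside the vehicle range. Its log2 fold change was 0.38, with a 95% interval of 0.05 to 0.71 (edgeR, Benjamini-Hochberg adjusted p = 0.101). Gene counts do not separate its receptor forms from phosphacan, nor the splice forms of Vcan and Bcan. Of the 8 edgeR fits that left out 1 library, Ptprz1 passed in 1, that without PAM 4, at a log2 fold change of 0.51 (Benjamini-Hochberg adjusted p = 0.00547). The lowest estimate of the 8 fits was 0.21, without PAM 2 (edgeR, Benjamini-Hochberg adjusted p = 0.278).

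Cspg5 (chr8:118333706-118347582, plus strand, 7 merged exons) had 127, 144, 112 and 104 CPM in PAM 1 to 4, against 112, 127, 129 and 131 CPM in vehicle 1 to 4. PAM 2 was the highest of the 8 libraries and PAM 4 the lowest. Its interval was among the narrowest of the 10 genes, -0.28 to 0.22 around a log2 fold change of -0.03 (edgeR, Benjamini-Hochberg adjusted p = 0.883), so these data leave room for changes of that size in either direction.

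In the authors' deposited table, which gives their own comparison of the same libraries, Tnc and Bcan were also the 2 net genes with an adjusted p under 0.05 (0.0241 and 0.0363), with Vcan next at 0.066. Among 13739 identifiers in the authors' deposited table, 17.4% carry an adjusted p under 0.05, 8.44% higher and 8.97% lower in PAM libraries. The log2 fold changes in the authors' deposited table were 0.61 for Tnc and 0.33 for Bcan.

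For most net genes PAM libraries differed among themselves more than vehicle libraries did. The standard deviation was larger with PAM for 9 of the 10 net genes, where 66.3% of all tested genes had the larger one with PAM. The median coefficient of variation of the net genes was 23.7% with PAM and 9.43% with vehicle, against 20.6% with PAM and 15.2% with vehicle over all tested genes. For 7 of the 10 net genes (all 4 lecticans, Tnc, Ptprz1 and Cspg5) both PAM 1 and PAM 2 lay above both PAM 3 and PAM 4, an order that 25.4% of all tested genes had. PAM 4 was the lowest PAM library for 6 of them, all but Tnc. Summed over the 10 genes, PAM 1 to 4 held 1791, 1979, 1445 and 1220 CPM, against 1435, 1388, 1373 and 1439 CPM in vehicle 1 to 4. The sums of PAM 1 and PAM 2 were above every vehicle library, that of PAM 3 was above them by a few CPM, and that of PAM 4 was below them.

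Removing the trend with exonic length, or leaving out PAM 3 and PAM 4, gave 5 net genes that rose and 0 that fell in either case. Over all tested genes 1025 of 11740 rose and 1143 fell with the trend removed. Without PAM 3 and PAM 4, 1374 of 12253 rose and 1526 fell. The net genes that rose were Acan, Bcan, Vcan, Tnc and Ptprz1 under both settings. For each of them PAM 1 and PAM 2 lay above PAM 3 and PAM 4. Leaving PAM 3 and PAM 4 out therefore raises their estimates by construction and is no separate support for a rise. Only PAM 1 and PAM 2 then remain against the vehicle libraries. With PAM 3 and PAM 4 left out the log2 fold changes were 0.52 for Acan, 0.51 for Bcan, 1.00 for Vcan, 0.79 for Tnc and 0.71 for Ptprz1. With the length trend removed they were 0.44, 0.36, 0.78, 0.74 and 0.50 in the same order of genes. Both link protein genes and Tnr stayed below 0 and did not pass under either setting.

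**Figure D4:**
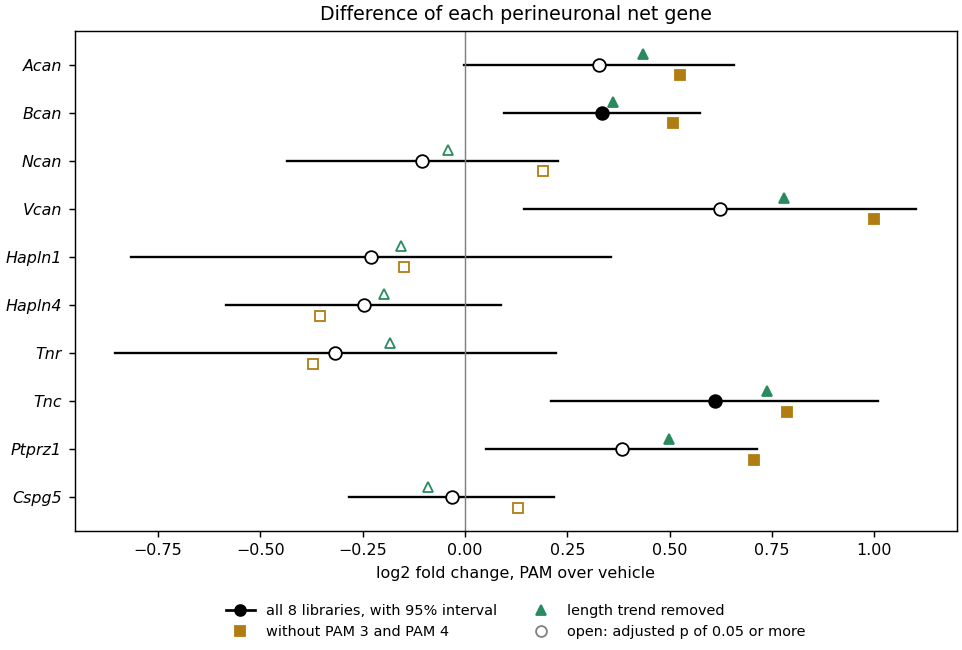
Log2 fold change of each net gene, PAM over vehicle: circles with 95% intervals for all 8 libraries, squares without PAM 3 and PAM 4, triangles with the length trend removed, filled where the adjusted p (edgeR, Benjamini-Hochberg) was under 0.05. Tnc and Bcan are filled with all libraries, and Acan, Vcan and Ptprz1 join them under the other settings.

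Several of these genes are also made by glia, so marker lists were read beside them. The shares of all tested genes to set beside the counts were 9.00% higher and 9.89% lower in PAM libraries. Of 11 tested astrocyte markers 5 rose and 0 fell, with Gja1, S100b and Gfap at the smallest p, and the summed level of the list was 9227 to 11264 CPM in PAM libraries and 6353 to 6661 CPM in vehicle libraries. Of 7 tested oligodendrocyte precursor markers 3 rose (Olig1, Sox10 and Gpr17) and 1, the receptor gene Pdgfra, fell; their sum was 996 to 1151 CPM with PAM and 761 to 855 CPM with vehicle. The Gpr17 call ended without PAM 1 or 2 or vehicle 1 or 2 (up to 0.0784), and that of Pdgfra without PAM 1 or 3 or vehicle 1 or 2 (up to 0.0938) and without PAM 3 and PAM 4, where its log2 fold change was -0.32 against -0.55 (0.0917; all edgeR, Benjamini-Hochberg adjusted). The oligodendrocyte list, with 3 of 5 tested genes that rose, summed to 371 to 685 CPM with PAM and 187 to 238 CPM with vehicle. None of the matched markers of these 3 lists was at 0, and the least, Gjb6, had 21 counts in all. All 4 PAM libraries were above all vehicle libraries in each of these 3 sums. Most of the precursor sum was Olig1 alone, with means of 744 CPM with PAM and 498 CPM with vehicle. The precursor markers Cspg4 and Olig2 did not pass, at log2 fold changes of -0.17 and 0.09, so the sum does not show a rise of the whole list. PAM 4 was the lowest PAM library for 6 of the net genes. It was also the lowest PAM library in all 3 sums, at 9227, 996 and 371 CPM. Among PAM libraries PAM 4 was lowest, too, for lists outside glia, such as fibroblast and meningeal markers. It was highest for the pan-neuronal and parvalbumin lists. Of the 3 glial sums, only that of oligodendrocytes had both PAM 1 and PAM 2 above PAM 3 and PAM 4. PAM 3 was above PAM 2 in the astrocyte sum (9875 and 9633 CPM) and highest in the precursor sum (1151 CPM). The part of glial RNA in the net gene results was not tested.

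Of 8 tested genes on a list for parvalbumin interneurons, the cells that nets typically enclose, 1 rose and 2 fell. Over all tested genes 9.00% rose and 9.89% fell. Pvalb had 25.9 ± 3.20 CPM with PAM and 9.54 ± 2.28 CPM with vehicle, while Slc32a1, the vesicular GABA transporter gene, had 75.9 ± 3.77 CPM with PAM and 146 ± 8.50 CPM with vehicle (SD, n = 4 each). The third, the potassium channel gene Kcnc2, fell by 0.68 on the log2 scale (edgeR, Benjamini-Hochberg adjusted p = 0.0401), a call that ended without PAM 1, 2 or 3 or vehicle 2, 3 or 4, with the length trend removed and with no low-count filter (0.0556 to 0.172 after Benjamini-Hochberg adjustment). The list summed to 689 to 941 CPM with PAM and 917 to 1054 CPM with vehicle. Most of that sum came from Gad1, Gad2 and Slc32a1, which mark GABAergic neurons in general and not parvalbumin cells alone. Gad1 and Gad2 had means of 299 and 338 CPM with PAM and 365 and 414 CPM with vehicle, and neither passed. Of 7 tested pan-neuronal markers 3 fell and 0 rose, with sums of 2698 to 3192 CPM with PAM and 3432 to 3956 CPM with vehicle. Of 7 tested excitatory neuron markers 3 fell and 0 rose, with sums of 895 to 1034 CPM with PAM and 1388 to 1637 CPM with vehicle, and each of the matched neuronal markers had counts.

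Among genes that build, cut and bind the net, 12 rose and 7 fell of 74 tested genes, 25.7% of them, against 18.9% of all tested genes. Of the 13 tested enzymes and inhibitors that govern lectican cleavage 5 rose, 0 fell, and the list's median log2 fold change was 0.63 against 0.02 over all tested genes. Adamts4, an aggrecanase that cleaves brevican and aggrecan, had 11.9 ± 2.83 CPM with PAM and 2.81 ± 0.306 CPM with vehicle (SD, n = 4 each), a log2 fold change of 2.08 ± 0.35. Mmp3, a matrix metalloproteinase, rose by 1.04 ± 0.26 on the log2 scale and Plat, the gene of tissue plasminogen activator, by 0.85 ± 0.12. The metalloproteinase inhibitors Timp4 and Timp1 rose too, by 1.32 ± 0.17 and 0.93 ± 0.14 on the log2 scale. All 5 kept an adjusted p under 0.05 in each fit that left out 1 library (edgeR, Benjamini-Hochberg, at most 0.0392). With PAM 4, or PAM 3 and PAM 4, left out, 8 genes of the list rose. Over all tested genes 1139 of 12120 rose without PAM 4, and 1374 of 12253 without PAM 3 and PAM 4. Adamts4, Mmp3 and Plat are proteases, while Timp4 and Timp1 inhibit metalloproteinases.

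Of 12 tested genes of hyaluronan synthesis, binding and turnover 3 rose and 0 fell. The hyaluronan receptor gene Cd44 had 59.1 ± 19.8 CPM with PAM and 38.1 ± 3.06 CPM with vehicle, the hyaluronidase gene Hyal2 37.5 ± 5.26 CPM with PAM and 25.8 ± 2.04 CPM with vehicle, and Hmmr, a hyaluronan-binding protein of dividing cells, 10.01 ± 3.71 CPM with PAM and 4.59 ± 1.67 CPM with vehicle (SD, n = 4 each). Of these 3 calls 0 held in the fits without vehicle 1, 2, 3 or 4 or without PAM 1; Hyal2 also lost its call without PAM 3 or PAM 4, without both (0.104) and with no low-count filter (0.0552), and Hmmr without PAM 2 or PAM 3 (edgeR, Benjamini-Hochberg adjusted). With limma-voom neither Cd44 nor Hmmr passed (0.0657 and 0.0513, Benjamini-Hochberg adjusted). None of the synthases Has1, Has2 and Has3 passed.

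Of 13 tested chain synthesis genes 1 fell, the xylose kinase gene Fam20b, by 0.44 ± 0.13 on the log2 scale, and 0 rose; its call ended without PAM 3 or vehicle 1, 2 or 3, and without PAM 3 and PAM 4 its log2 fold change was -0.28 (edgeR, Benjamini-Hochberg adjusted p = 0.116). Chpf (log2 fold change -0.27) and Dse (1.02) came next by p and did not pass with all libraries (edgeR, Benjamini-Hochberg adjusted p = 0.102 and 0.16); Chpf passed without PAM 4 and without PAM 3 and PAM 4, at -0.33 and -0.45. The list of sulfotransferases and sulfatases also holds synthases of the sulfate donor PAPS, and 1 of its 10 tested genes rose. It was such a synthase, Papss2, which had 20.4 ± 3.87 CPM with PAM and 5.51 ± 1.24 CPM with vehicle (SD, n = 4 each), a log2 fold change of 1.89 ± 0.27. None of the tested sulfotransferases or sulfatases themselves passed. Chst7 (0.68) and Chst11 (-0.47) followed without passing (edgeR, Benjamini-Hochberg adjusted p = 0.176 and 0.181).

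Of 14 tested receptors and ligands of net components 3 rose and 4 fell. The genes that rose were Ptn, the growth factor pleiotrophin that binds the chains of PTPRZ1, by 0.80 ± 0.10 on the log2 scale, its relative Mdk (midkine) by 0.76 ± 0.18, and the integrin gene Itgb1 by 0.42 ± 0.12. The genes that fell were the Nogo receptor genes Rtn4rl1 and Rtn4r, by 1.53 ± 0.16 and 0.83 ± 0.16, the adhesion molecule gene L1cam, by 0.79 ± 0.11, and Ptprs, a phosphatase receptor for chondroitin sulfate, by 0.50 ± 0.12 on the log2 scale. The Itgb1 call ended without vehicle 3 or PAM 1, and Mdk was at 0.31 without PAM 3 and PAM 4 (edgeR, Benjamini-Hochberg adjusted p = 0.0509). Rtn4r, Ptprs, Mdk, Itgb1, Adamts4, Mmp3 and Pdgfra lie outside the naming rule and were picked, with their values known, so that counts are complete. Cspg4, Olig2, Gad1 and Gad2 also lie outside it and were named, with their values known, to describe list sums.

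Of 12 tested genes for other proteoglycans and link proteins 2 fell and 0 rose. Sdc3, the syndecan-3 gene, had 242 ± 22.5 CPM with PAM and 318 ± 8.40 CPM with vehicle, and Spock1, the gene of the proteoglycan testican-1, had 21.3 ± 4.27 CPM with PAM and 31.9 ± 4.55 CPM with vehicle (SD, n = 4 each). The Spock1 call ended in the fits without PAM 1 or 3 or without vehicle 2, 3 or 4, without PAM 3 and PAM 4 (0.0503) and with upper-quartile scaling (0.0556), and that of Sdc3 with the length trend removed (0.0645; all edgeR, Benjamini-Hochberg adjusted). Spock2 was at a log2 fold change of -0.64 without passing (edgeR, Benjamini-Hochberg adjusted p = 0.109); it was at -0.25 without PAM 3 and PAM 4, and it passed with no low-count filter (0.00284).

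**Figure D5:**
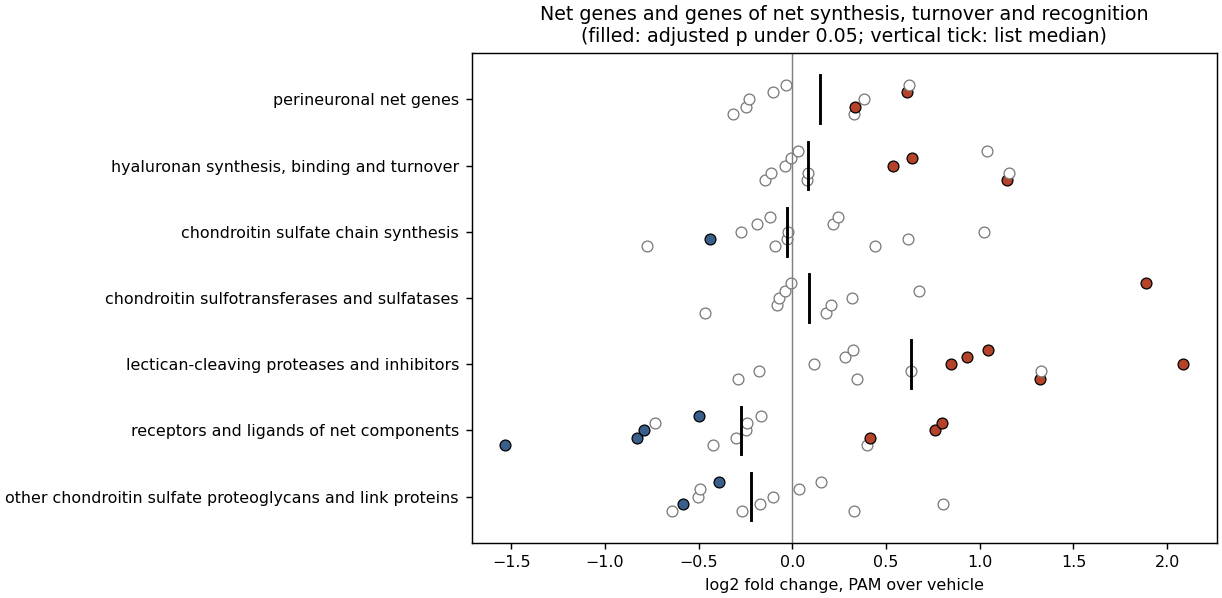
Log2 fold change, PAM over vehicle, of each tested gene in the net gene list and 6 lists of related genes, filled where the adjusted p (edgeR, Benjamini-Hochberg) was under 0.05, with a vertical tick at each list's median. The list of lectican-cleaving proteases and inhibitors has its median at 0.63, and that of the net genes is at 0.15.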

How the data were processed

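Per the file headers, the authors deposited a featureCounts table of raw counts per library, which also lists exon positions and lengths. Per the submitters' processing notes, STAR, featureCounts, DESeq, DESeq2 and the build Rnor_6.0 were used; no versions are given. The sources say nothing on strand or on multi-mapping reads. Per the file headers, the authors' deposited comparison holds group means (a signal, normalized counts), log2 fold changes and raw and adjusted p-values; net genes were found by its symbols. Rows with no symbol stayed in the fits. Coordinates are 1-based on Rnor_6.0.

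The count model was run with edgeR 4.0.16 under R 4.3.3: filterByExpr, TMM scaling, robust quasi-likelihood F test, group as the only term, Benjamini-Hochberg adjustment over 11740 genes. SE is the log2 fold change over the square root of F. CPM uses TMM-scaled library sizes. Ratios used log2 of counts plus 0.5, with an exact permutation test (scipy 1.17.1). The 3 counts that a 0 still allows equal 0.683 to 1.01 CPM (counting error only). No 2 replicates were near-identical (chi-square per degree of freedom 2.85 to 16.2).

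Alternatives were DESeq2 1.42.0, limma-voom (limma 3.58.1), other scalings and filters, a replicate block, left-out libraries and removal of the length trend (loess, span 0.5). The fits were tested on simulated data. The net genes, lists and tests were chosen with earlier results of these data known. Besides the net genes, the 3 genes with the smallest p of a list were named, and others to complete counts or to describe list sums. Of 184 listed genes, 166 were matched to an identifier.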

Additional observations from a re-analysis of the deposited data

Results flagged for a closer look

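In vehicle 2, Acan stood at 42.9 CPM, apart from the other vehicle libraries at 40.8 to 41.0 CPM; the gap was 0.886 of the group's range. The whole vehicle range of Acan is narrow, so the difference is small in size. In all, 36 groups of 4 libraries were checked for a library that stands apart (10 genes and 8 ratios in each group of libraries) and 1 was found, where chance gives about 1 in 20.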

How the results depend on the processing

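The count of net genes past the test, 2 with all libraries, was 1 with limma-voom, with a minimum mean of 1 CPM and with the replicate block, 4 with no low-count filter, and 5 both with the length trend removed and with PAM 3 and PAM 4 left out; leaving out 1 library gave 0 to 4. It was 2 with DESeq2, RLE and upper-quartile scaling. Over all tested genes 1025 of 11740 rose with the length trend removed and 1374 of 12253 without PAM 3 and PAM 4. Every call of a net gene under any alternative was an increase. With 1 library left out, Ncan ranged from -0.27 (without PAM 2) to 0.049 (without PAM 4) on the log2 scale, and Cspg5 from -0.12 (without PAM 2) to 0.033 (without PAM 4), with 0.0055 without PAM 3. Without PAM 3 and PAM 4 Ncan was at 0.19 and Cspg5 at 0.13, and none of these passed. The Acan over Bcan difference was 0.069 with the length trend removed and at most 0.043 with 1 library left out. That of Hapln1 over Hapln4 ranged from -0.33 to 0.26 over all alternatives, within 1 SD of its libraries, and the other 6 ratio differences kept their direction in each alternative. Over all genes 1527 to 2408 passed with 1 library left out and 2064 to 2900 otherwise, against 2218; in the 6 related lists 13 to 24 and 17 to 23, against 19. Hyaluronan genes past the test were 1 with limma-voom and 0 to 3 with 1 library left out, against 3. Chain synthesis genes were 0 to 2 with 1 library left out and 3 without PAM 3 and PAM 4, against 1. Other proteoglycans were 1 with upper-quartile scaling, with the length trend removed and without PAM 3 and PAM 4, and 4 with no low-count filter, against 2 (1 to 4 with 1 library left out). The cause of these shifts was not tested. Same-numbered replicates showed only weak correlations of their deviations (0.0516, -0.0454, 0.0676 and -0.0595 for numbers 1 to 4). These give no sign that the numbers pair libraries, and weak correlations cannot exclude it. The replicate block gave 2064 genes. Among the named genes it took away the calls of Bcan, Hmmr and Kcnc2 (edgeR, Benjamini-Hochberg adjusted p = 0.063, 0.0802 and 0.0626). Depth limits Tnr most, at 32 to 57 counts per library.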

Other observations

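Lists of other cell types that the cultures could hold gave the following values, where 9.00% of all tested genes rose and 9.89% fell. Of 2 tested microglia markers 0 passed, and the matched genes summed to 18.8 to 23.0 CPM in PAM libraries and 18.4 to 41.3 CPM in vehicle libraries. The endothelial list had 1 tested gene, Kdr, which rose, and summed to 13.1 to 23.2 CPM with PAM and 5.64 to 11.6 CPM with vehicle. Fibroblast and meningeal markers rose in 3 of 6 tested genes and summed to 151 to 280 CPM with PAM and 113 to 161 CPM with vehicle. Ependymal markers rose in 6 of 6 tested genes and summed to 124 to 206 CPM with PAM and 37.9 to 53.7 CPM with vehicle. The part of these cells in the levels of net genes was not tested.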
